A study of Drosophila melanogaster with 9 samples.

Results

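The glutathione S-transferase genes of Drosophila melanogaster were followed in hemocytes, the blood cells of the larva. Members were the rows of the count table whose symbol is Gst, a class letter (D, E, S, T, O or Z) and a number. The table held 35 such genes among 17874, with 11 in class D (Delta), 14 in class E (Epsilon), 1 in class S (Sigma), 4 in class T (Theta), 3 in class O (Omega) and 2 in class Z (Zeta). All 35 had at least 1 count, 30 had counts in every library, and 29 passed the filter on low counts and were tested.

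Hemocytes were bled from larvae in the third larval instar, in experiments run at 25 °C, and pooled from 300 larvae per library, with 3 biological replicates per group. The groups were larvae labelled UAS-BCR-ABLP210 (here p210), larvae labelled UAS-BCR-ABLT315I (here T315I) and the W1118 control strain. BCR-ABL is the human fusion kinase of chronic myeloid leukaemia, and T315I is a kinase domain mutant that is resistant to imatinib. UAS marks a transgene that needs a Gal4 driver, and the labels name neither the driver nor the cells it acts in. Strain background and transgene cannot be told apart in these groups.

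Glutathione S-transferases are enzymes that join the thiol of glutathione to electrophilic molecules, so that insecticides, plant toxins and products of lipid peroxidation can be exported. Delta and Epsilon are the classes that expanded in insects by local duplication and carry most of the detoxification known there. Omega enzymes act more as thiol transferases, Zeta enzymes isomerize maleylacetoacetate in the breakdown of tyrosine, and the Drosophila Sigma enzyme is known for conjugating lipid peroxidation products and for its abundance in flight muscle. Part of the family is a target of the transcription factor Cnc, the fly relative of Nrf2, and GstD1 is a common readout of oxidative stress in flies.

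In both transgene groups 5 genes rose at least 2-fold over control, namely GstD3, GstD5, GstE2, GstE6 and GstE8. The 7 members that fell in both were GstD10, GstE12, GstE13, GstS1, GstT4, GstO1 and GstO3. Against control 48.3% of the tested members were called in p210 and 44.8% in T315I, near the 57.1% and 49.3% of all tested genes. No member was called between T315I and p210. The most abundant member, GstD1, was not called in either comparison with control.

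Libraries held 14.48 to 18.16 M counts in p210, 13.86 to 15.72 M in T315I and 5.4 to 9.84 M in control. A count of 3, the limit for counting error, was thus worth 0.17 to 0.554 CPM, where CPM are counts scaled to a library of 1 M after TMM normalization. All 10 plasmatocyte markers, which mark the most common hemocyte, were detected and tested. Control replicate 3 stood apart from the other controls, and values that it moves by more than 1.5 times are given with and without it. The comparisons of p210 and of T315I with control share the same 3 control libraries.

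Summed over all 35 genes, the family stood at 2182, 1677 and 1731 CPM in p210, at 2090, 1800 and 1762 CPM in T315I, and at 2532, 2235 and 2129 CPM in control. The p210 and control libraries overlapped in this sum, whereas every T315I library lay below every control library. The ratio of the means was 0.811 for p210 over control and 0.819 for T315I over control. These sums are descriptions and were not tested.

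**Figure D1:**
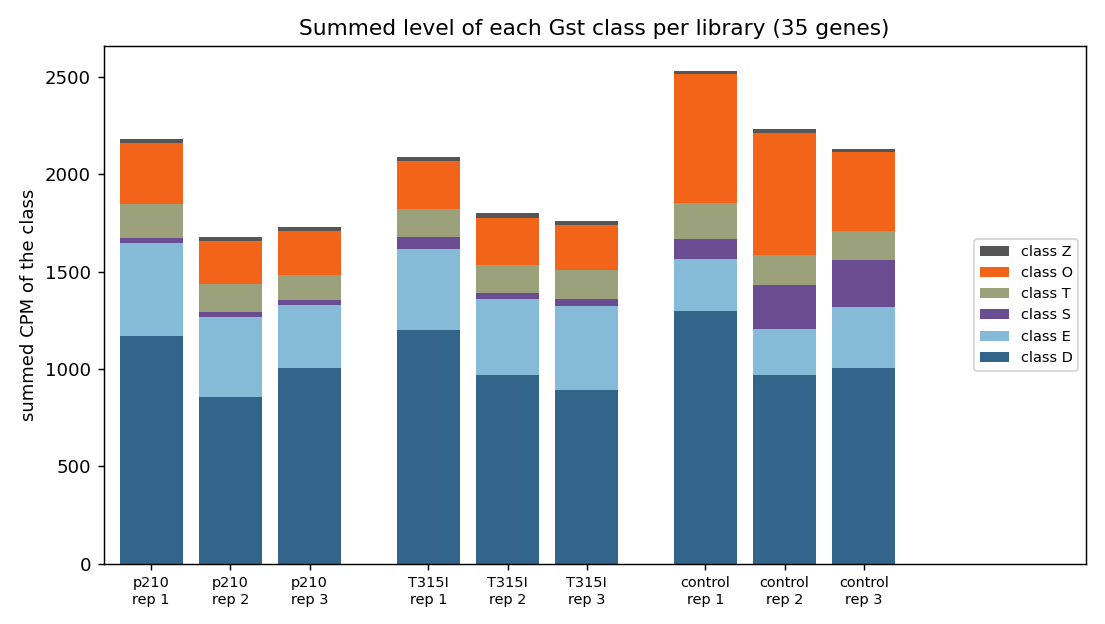
Summed CPM (linear axis) of each Gst class in the 9 libraries, stacked by class letter, with p210, T315I and control libraries side by side. Class E is taller in every p210 and T315I library (327.6 to 476.1 CPM) than in any control library (at most 310.5 CPM), while the class O and class S segments are shorter in every transgene library.

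By class letter the sums moved in different directions. Class D held 1172, 856.8 and 1003 CPM in p210, 1198, 971.2 and 893.3 CPM in T315I, and 1300, 970.8 and 1007 CPM in control, and the groups overlapped. Class E averaged 405.3 ± 74.5 CPM in p210, 411.7 ± 20.9 CPM in T315I and 270.6 ± 37.0 CPM in control (SD, n = 3 each), a ratio of 1.5 for p210 and 1.52 for T315I, with no overlap of either group with control. Scaled to plasmatocyte markers instead (a scaling described with the calls), the log2 ratio of class E was 0.13 in p210 and 0.14 in T315I, against 0.58 and 0.61 by TMM. Class O averaged 251.2 ± 49.8 CPM in p210, 239.9 ± 8.49 CPM in T315I and 565.7 ± 138.6 CPM in control, again without overlap. Class T was at 149.8 ± 24.3, 145.7 ± 4.86 and 162.3 ± 22.4 CPM in p210, T315I and control, and class Z at 20.7 ± 2.33, 22.1 ± 2.21 and 18.8 ± 3.06 CPM, with overlapping groups in both classes. No direction is given for classes D, T and Z, whose groups overlapped.

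In classes D, O, T and Z a single gene carried most of the sum. GstT1 held 60.0% of the class T sum in p210, 57.5% in T315I and 52.7% in control, and GstZ1 98.5%, 96.8% and 90.1% of class Z. GstO3 held 70.3% of the class O sum in p210, 71.1% in T315I and 87.6% in control. With control replicate 3 left out, the ratios of class O were 0.389 for p210 and 0.372 for T315I, and 1.17 and 1.09 without GstO3. GstD1 held 73.1% of the class D sum in p210, 72.7% in T315I and 92.2% in control. Without GstD1 the other 10 class D genes summed to 272 ± 46.5 CPM in p210, 279.1 ± 36.5 CPM in T315I and 85.7 ± 46.5 CPM in control, a ratio of 3.17 for p210 and 3.26 for T315I. The control mean of these 10 genes was 58.9 CPM without control replicate 3, which made the ratios 4.62 and 4.74. Without GstD1 and GstD3 the remaining 9 stood at 44.8 ± 10.7, 46.4 ± 7.15 and 48.2 ± 0.505 CPM in p210, T315I and control. In class E the share of GstE6 was 48.5% in p210, 47.8% in T315I and 15.3% in control, or 7.54% in control without replicate 3. Without GstE6 the other 13 genes summed to 208.8 ± 38.1, 215.1 ± 10.3 and 229.2 ± 15.7 CPM in p210, T315I and control. Both transgene groups then overlapped control.

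Scaled to exon length (CPM per kb of merged exons, a level), GstD1 ranked first in all 3 groups, with means of 876.3 in p210, 879.8 in T315I and 1194 in control. GstD3 ranked 2 in both transgene groups, at 304.6 in p210 and 311.9 in T315I, and 7 in control, at 50.3, or 18 in control, at 14.6, without control replicate 3. GstE6 ranked 3 in p210 and T315I, with 261.6 and 261.9, and 6 in control, with 55.2, or 12 in control, with 25.2, without control replicate 3. GstO3 was second in control with 562.7 and ranked 4 with 200.5 in p210 and 193.7 in T315I. GstS1 ranked 20 in p210, 16 in T315I and 5 in control, at 11.3, 19.3 and 83.2 CPM per kb.

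**Figure D2:**
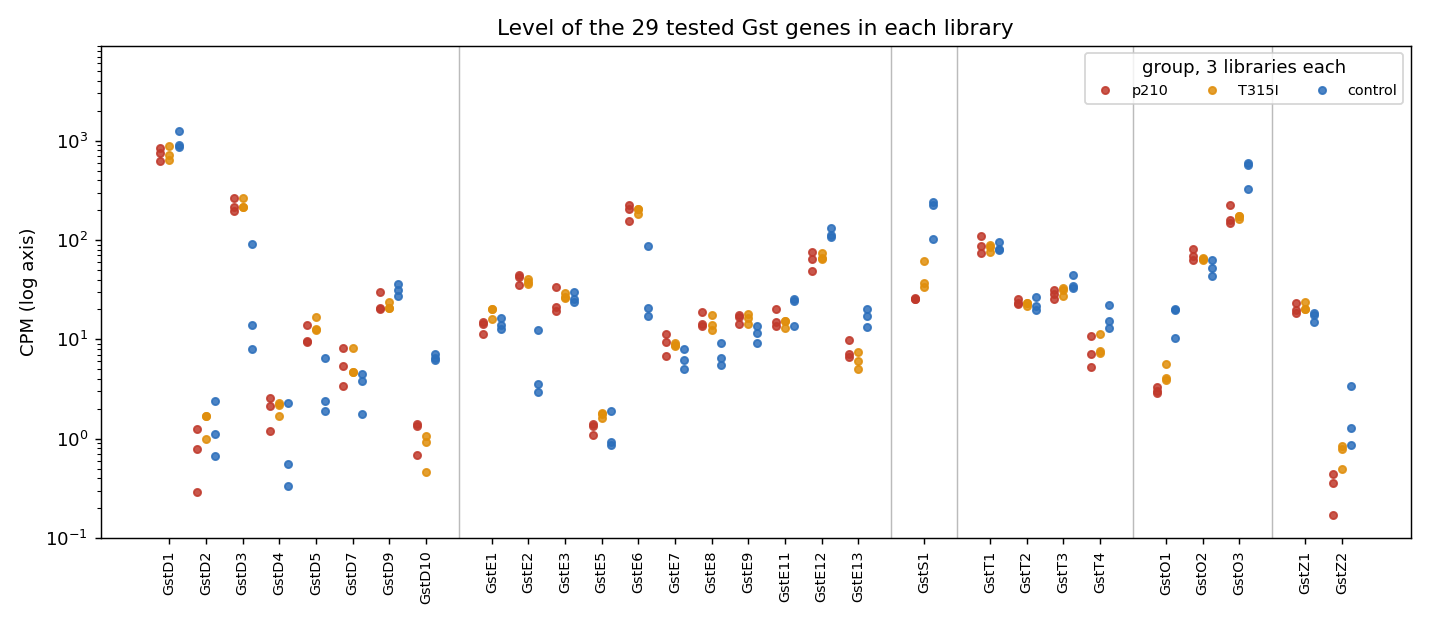
CPM on a log axis of the 29 tested Gst genes in each library, grouped by class letter, with p210 (red) left, T315I (orange) in the middle and control (blue) on the right for each gene. The levels span from below 1 CPM (GstZ2, GstD2) to 621.5 to 1238 CPM (GstD1), and the blue control points of GstD3, GstE2 and GstE6 lie wide apart, with control replicate 3 as the high point (90.8, 12.4 and 86.5 CPM).

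The first comparison asked what differed between p210 and control hemocytes. With edgeR (quasi-likelihood, p adjusted by Benjamini-Hochberg over 9978 genes, called under 0.05) the test called 14 of the 29 tested members, 6 higher and 8 lower in p210. Of all tested genes 57.1% were called, 26.9% higher and 30.3% lower, and the share of members called (48.3%) was near that background. Changes of 2-fold or more were found for 5 members called higher and 7 called lower, where 8.53% and 26.6% of all tested genes were called with such changes. The p210 and control libraries did not overlap in 17 members, 7 higher and 10 lower, a share of 58.6% against 61.6% of all tested genes (31.2% higher and 30.4% lower). The median log2 fold change was -0.09 over the members and 0.05 over all tested genes.

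T315I against control gave 13 called members, 5 higher and 8 lower, where 49.3% of all tested genes were called, 20.5% higher and 28.7% lower. The members' share was 44.8%. All 5 members called higher and 5 of those called lower changed at least 2-fold, and 6.41% and 24.9% of all tested genes did. Libraries did not overlap in 10 members higher and 9 lower, which is 65.5% of members and 58.2% of all tested genes (30.3% higher and 27.8% lower). The median log2 fold change was 0.05 over members and -0.02 over all tested genes. Counted over both comparisons, 12 members were called in the same direction in each, 5 higher and 7 lower, 15 were called in at least 1 and 14 in neither. Both comparisons use the same control libraries, and this count was not made over all tested genes.

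**Figure D3:**
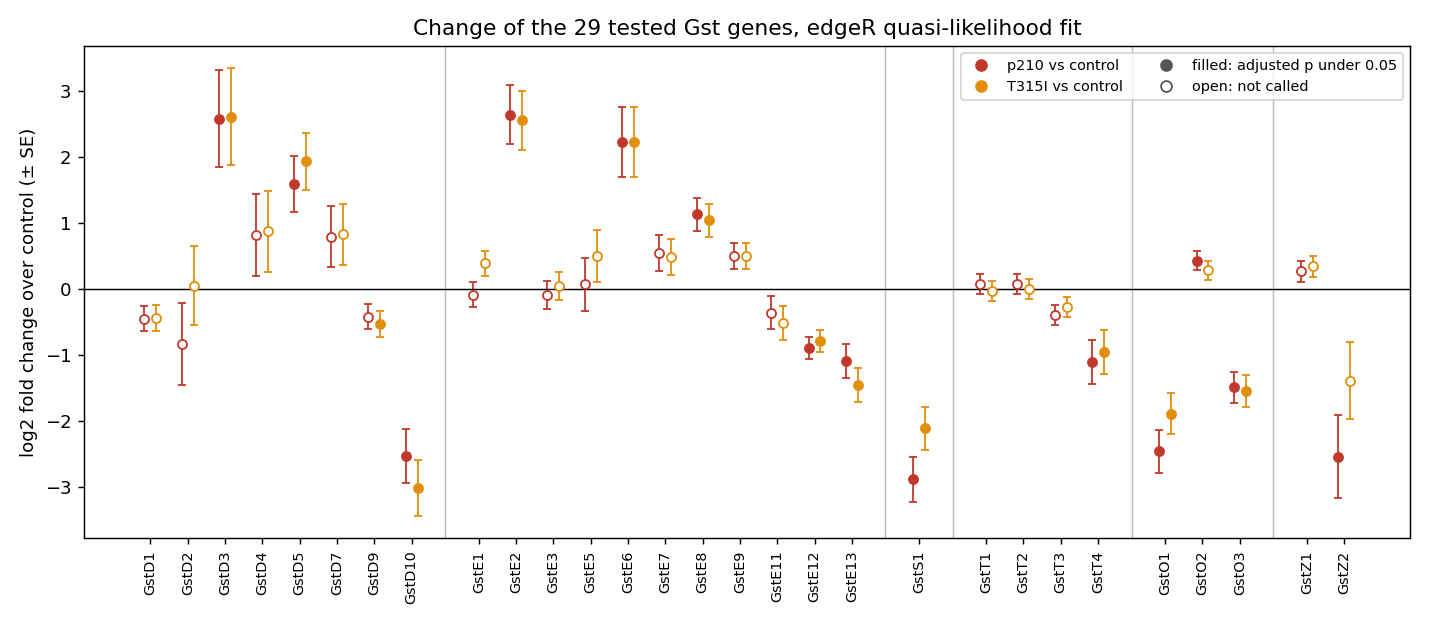
Log2 fold change over control (± SE) of the 29 tested Gst genes by class letter, for p210 (red, left) and T315I (orange, right), with filled points for genes past the adjusted p threshold of 0.05. GstD3, GstE2 and GstE6 stand highest in both (2.23 to 2.64), and GstS1, GstD10, GstO1 and, for p210, GstZ2 stand lowest.

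Directions depend in part on the scaling. Scaled to the summed counts of 10 plasmatocyte markers instead of TMM, the median of all tested genes was -0.44 for p210 and -0.49 for T315I, and 12.5% and 10.4% of calls were higher, in place of 47.0% and 41.7%. With upper-quartile scaling 36% of the p210 calls were higher. Under plasmatocyte scaling 2 of the 29 tested members, GstE2 and GstE6, were still called higher in p210, and 3, those and GstD5, in T315I, while 11 and 12 were called lower. Of all 9978 tested genes 509 were called higher and 3553 lower in p210 in that setting, and 408 and 3513 in T315I. Plasmatocyte markers themselves summed to 31580 to 48890 CPM in p210, 36210 to 46680 CPM in T315I and 26610 to 31080 CPM in control, a sum that this scaling sets equal in all libraries. By TMM 4 of the 10 were called higher and 0 lower in each comparison. Among the 4, Ppn averaged 14230 CPM in p210, 12780 CPM in T315I and 4383 CPM in control. Hml, which was not called, averaged 12890, 12930 and 11590 CPM. The scaling thus rests in part on genes that were themselves called. Directions below are relative to TMM over all genes.

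Control replicate 3 was the control library nearest to the transgene libraries for 13 of the 15 members called in at least 1 comparison, all 6 that were called higher and 7 of 9 called lower. The other 2, GstS1 and GstO1, were nearest in control replicate 1. The nearest control was not counted over all called genes. Without control replicate 3 the members called were 8 higher and 12 lower in p210 and 8 higher and 11 lower in T315I, of 30 members tested. These are 66.7% and 63.3% of members, where 55.8% of all genes tested in that setting were called in p210 (25.1% higher and 30.7% lower) and 49.3% in T315I (22.4% higher and 26.9% lower). GstD4, GstE9 and, in T315I, GstO2 were those added among the higher ones.

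Markers of other cells moved with the same groups. Of 6 lamellocyte markers (lamellocytes are the flat hemocytes that encapsulate parasites) 5 were tested and 4 rose in both comparisons. They summed to 9226 to 12180 CPM in p210, 9078 to 11120 CPM in T315I, and 1596, 1369 and 4624 CPM in control replicates 1, 2 and 3, so that control replicate 3 stood nearest to the transgene libraries here as it did for the members that rose. Of 10 plasmatocyte markers 4 rose in each comparison. Of 4 crystal cell markers 3 were tested and 1 rose, with sums of 3746 to 4201 CPM in p210, 4000 to 5164 CPM in T315I and 4234 to 5875 CPM in control. The lamellocyte marker atilla and the crystal cell marker PPO1 were at 0 in all libraries, and both have their span wholly covered by other genes.

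Of the markers of tissues other than blood, most that were called were lower in the transgene groups. All 7 fat body markers in the table (of 8 listed) fell, with sums of 4022 to 5944 CPM in p210, 7730 to 11740 CPM in T315I, and 97680, 62200 and 38680 CPM in control replicates 1, 2 and 3. All 9 muscle markers fell too, with sums of 323.7 to 365.9 CPM in p210, 367.1 to 431.6 CPM in T315I, and 2911, 2916 and 1313 CPM in control. Midgut markers (7 of 10 tested, 3 lower in p210 and 4 in T315I) summed to 27.2 to 82.6, 44.2 to 62.9 and 324.6 to 581.2 CPM in p210, T315I and control. Of 6 Malpighian tubule markers 4 were tested, and 3 fell and 1 rose in p210 while 3 fell and 0 rose in T315I, with sums of 8.64 to 11.4, 8.16 to 11.4 and 15.9 to 52.6 CPM. Cuticle markers (4 of 7 tested, all 4 lower) summed to 6.02 to 7.46, 9.85 to 12.1 and 58.7 to 184.6 CPM. Control replicate 3 was the control nearest to the transgene libraries in the fat body, muscle and cuticle sums, but not in the midgut and Malpighian tubule sums. The part of these cells and tissues in the changes of the Gst genes was not tested, and in bulk RNA fewer cells of a type and less RNA per cell cannot be told apart.

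Among the Delta genes, GstD3 (FBgn0010039, a gene of a single exon) had 267.3, 198.1 and 216.2 CPM in p210, 266.5, 217 and 214.4 CPM in T315I, and 13.9, 7.95 and 90.8 CPM in control. All 6 transgene libraries lay above all 3 controls, and control replicate 3 was far above the other 2 controls. GstD3 rose 5.98-fold in p210 (log2 fold change 2.58 ± 0.73 SE, edgeR adjusted p = 0.0136) and 6.12-fold in T315I (2.61 ± 0.73, edgeR adjusted p = 0.0165). Without control replicate 3 the folds were 20.8 and 21.9, with log2 fold changes of 4.38 ± 0.27 and 4.46 ± 0.27. Under plasmatocyte scaling it was not called, at 2.20 in p210 (adjusted p = 0.0859) and 2.24 in T315I (adjusted p = 0.0829), nor was it in a T315I fit without the p210 libraries (adjusted p = 0.0526).

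GstD5 followed at a lower level, with 13.9, 9.49 and 9.59 CPM in p210, 16.7, 12.7 and 12.5 CPM in T315I, and 2.4, 1.88 and 6.44 CPM in control. The groups did not overlap, and control replicate 3 was again the highest control. The log2 fold change was 1.59 ± 0.43 in p210 (edgeR adjusted p = 0.0109) and 1.93 ± 0.43 in T315I (edgeR adjusted p = 0.00761). Without control replicate 3 it was 2.34 and 2.73. For p210 the call was lost under plasmatocyte scaling (1.19, adjusted p = 0.0575).

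GstD1, whose product can break down DDT, had 848.1, 621.5 and 746.6 CPM in p210, 876.6, 711.7 and 636.7 CPM in T315I, and 1238, 914.5 and 867.4 CPM in control. Every p210 library was below every control, while T315I and control overlapped. It was not called, at -0.45 ± 0.19 in p210 (edgeR adjusted p = 0.0715) and -0.44 ± 0.19 in T315I (0.0825), but DESeq2 called it lower in both (-0.49 and -0.47, adjusted p = 0.0311 and 0.0426). It was also called lower in both without control replicate 3 (-0.58 and -0.53, edgeR adjusted p = 0.0317 and 0.0492), with the stricter filter on low counts (-0.64 and -0.58) and under plasmatocyte scaling (-0.93 and -0.90). Without control replicate 1, its highest library, GstD1 was not called and the changes shrank to -0.22 and -0.20 (edgeR adjusted p = 0.324 and 0.372).

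GstD10 moved the other way from its cluster neighbours GstD3 and GstD5. It had 0.678, 1.35 and 1.39 CPM in p210, 1.06, 0.914 and 0.457 CPM in T315I, and 6.46, 7.07 and 6.16 CPM in control. The 3 controls lay close together and far above all transgene libraries. GstD10 fell by 2.53 ± 0.41 on the log2 scale in p210 (edgeR adjusted p = 0.00158) and by 3.01 ± 0.42 in T315I (0.0026), on 7 to 19 counts per transgene library and 35 to 65 per control library.

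GstD9 was called lower in T315I (-0.53 ± 0.19, edgeR adjusted p = 0.0393) and not in p210 (-0.42 ± 0.19, adjusted p = 0.0802), and the difference between T315I and p210 was -0.11 ± 0.18. GstD7 averaged 5.69 ± 2.44 CPM in p210, 5.85 ± 2.09 CPM in T315I and 3.33 ± 1.39 CPM in control and was not called. GstD4 averaged 1.96, 2.05 and 1.05 CPM and GstD2 0.772, 1.46 and 1.38 CPM in p210, T315I and control, and neither was called. The control replicates of GstD2 were at 1.11, 0.662 and 2.37 CPM. GstD4 had 3 counts each in control replicates 1 and 2 and 24 in control replicate 3, and without that library it was called higher, at 2.14 ± 0.56 in p210 and 2.25 ± 0.56 in T315I (edgeR adjusted p = 0.0117 and 0.0133).

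Of the Epsilon genes, GstE6 (FBgn0063494) had 227.3, 207.3 and 154.6 CPM in p210, 204.2, 182.8 and 202.9 CPM in T315I, and 17.2, 20.6 and 86.5 CPM in control. Both transgene groups were clear of the controls, of which replicate 3 again stood highest. It rose 4.69-fold in either group, with log2 fold changes of 2.23 ± 0.53 and 2.23 ± 0.53 (edgeR adjusted p = 0.00601 and 0.00924), and 10.1-fold and 10.4-fold without control replicate 3.

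GstE2 had 44.6, 42.1 and 35.1 CPM in p210, 37.4, 36.4 and 40.7 CPM in T315I, and 3.51, 2.98 and 12.4 CPM in control. No transgene library overlapped a control. The log2 fold change was 2.64 ± 0.44 in p210 (edgeR adjusted p = 0.0017) and 2.55 ± 0.44 in T315I (0.00405), or 3.62 and 3.57 without control replicate 3. GstE8 had 19, 14.3 and 13.6 CPM in p210, 12.4, 14 and 17.7 CPM in T315I, and 5.54, 6.51 and 9.19 CPM in control, without overlap. GstE8 rose by 1.13 ± 0.25 in p210 (edgeR adjusted p = 0.00489) and 1.04 ± 0.25 in T315I (0.0103) on the log2 scale, and was not called under plasmatocyte scaling (0.69 and 0.57, adjusted p = 0.158 and 0.249).

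Epsilon members outside the row of GstE1 to GstE9 fell or were not called. GstE12 had 76.1, 64.9 and 48.3 CPM in p210, 63.9, 65.2 and 74.8 CPM in T315I, and 132, 112.3 and 107.6 CPM in control. Its transgene libraries all lay below the controls, with log2 fold changes of -0.89 ± 0.17 in p210 and -0.79 ± 0.17 in T315I (edgeR adjusted p = 0.00238 and 0.00687). GstE13 had 9.84, 6.66 and 7.18 CPM in p210, 6.07, 5.07 and 7.37 CPM in T315I, and 20.1, 17.3 and 13.3 CPM in control. It fell by 1.09 ± 0.26 in p210 and by 1.45 ± 0.26 in T315I on the log2 scale (edgeR adjusted p = 0.00606 and 0.00443).

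GstE1, GstE3, GstE5, GstE7, GstE9 and GstE11 were called in neither comparison. Their log2 fold changes ran from -0.36 (GstE11) to 0.54 (GstE7) in p210 and from -0.52 (GstE11) to 0.50 (GstE5) in T315I. GstE9 was above control in all 6 transgene libraries, with log2 fold changes of 0.50 ± 0.20 in each (edgeR adjusted p = 0.0552 and 0.0646), and passed without control replicate 3 (0.61 and 0.65).

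**Figure D4:**
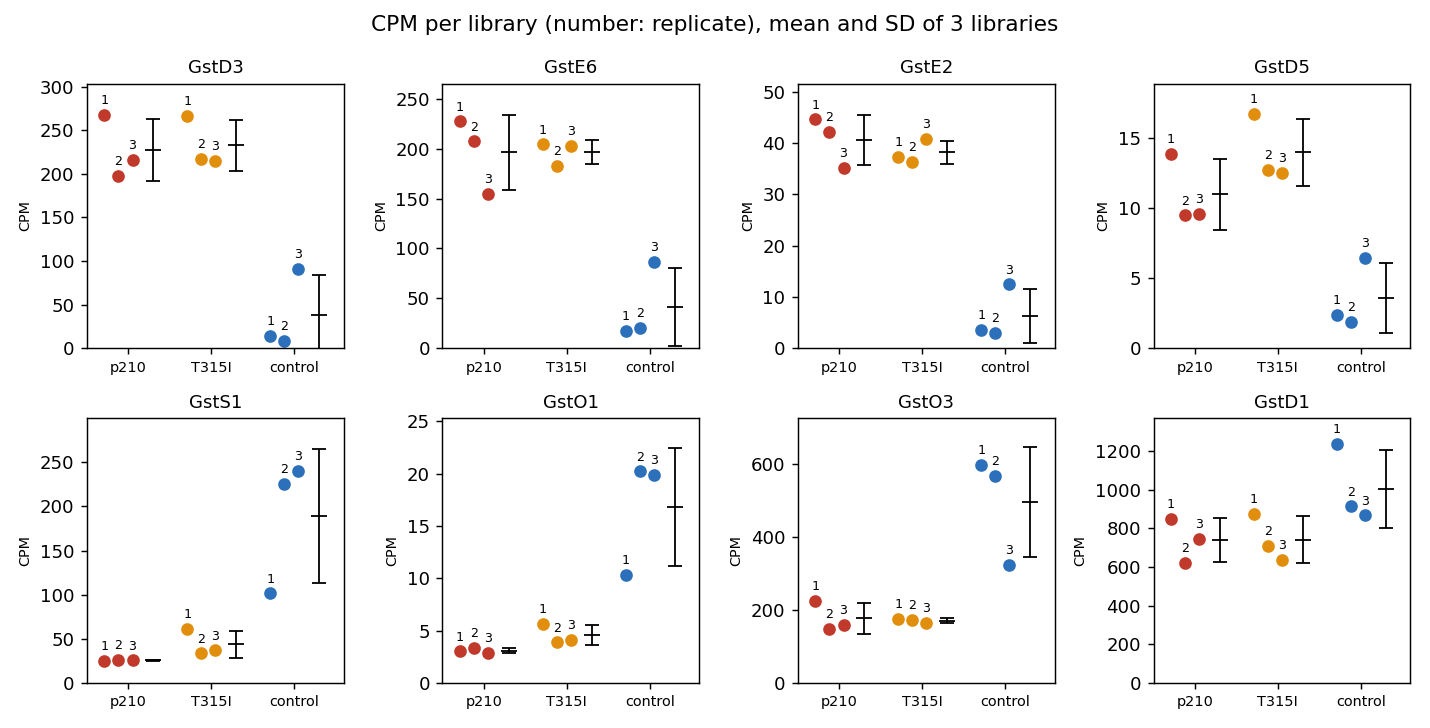
CPM per library (linear axes from 0) of 8 Gst genes, numbered by replicate, with the mean and SD of 3 libraries beside the points. In the upper row control replicate 3 lies between the other controls and the transgene libraries (GstD3: 90.8 CPM against 13.9 and 7.95 CPM), whereas for GstS1 and GstO1 it lies with control replicate 2. The lower end of the control bar of GstD3 is cut off at 0.

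GstS1 (FBgn0010226), the Sigma gene, showed the largest fall among the called members in p210. It had 25.2, 26.4 and 25.4 CPM in p210, 61.5, 33.3 and 36.8 CPM in T315I, and 101.4, 225.6 and 240.5 CPM in control. The 3 groups did not overlap, with p210 lowest, T315I between and control highest. GstS1 fell 7.38-fold in p210 (-2.88 ± 0.34, edgeR adjusted p = 0.000815) and 4.32-fold in T315I (-2.11 ± 0.33, 0.00336). The marker sums of fat body, muscle, midgut, Malpighian tubule and cuticle were lower in the same groups. Of these sums that of the Malpighian tubule alone was lowest in control replicate 1 among the controls, as GstS1 was. The part of these tissues in this fall was not tested. Leaving out any library kept GstS1 called, with log2 fold changes between -3.13 and -2.71 in p210 and between -2.41 and -1.90 in T315I.

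The 3 Omega genes lie within 5.98 kb of each other, together with se, the Omega gene that encodes the enzyme of red eye pigment synthesis and whose symbol is outside the naming rule. GstO3 had 224.2, 146.9 and 158.8 CPM in p210, 175.9, 172.7 and 163.5 CPM in T315I, and 597.2, 566.3 and 323.6 CPM in control. All transgene libraries were lower than all controls, with log2 fold changes of -1.49 ± 0.24 and -1.54 ± 0.24 (edgeR adjusted p = 0.00158 and 0.00342). GstO1 had 3, 3.33 and 2.86 CPM in p210, 5.65, 3.87 and 4.11 CPM in T315I, and 10.3, 20.2 and 19.9 CPM in control. It fell by 2.46 ± 0.32 in p210 and by 1.89 ± 0.31 in T315I on the log2 scale (edgeR adjusted p = 0.00105 and 0.00358).

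GstO2 ran against these neighbours in p210. It had 81.4, 69.7 and 63.3 CPM in p210, 66.5, 64.1 and 63.5 CPM in T315I, and 52.6, 43.7 and 63.1 CPM in control. The groups only just failed to overlap, with control replicate 3 next to the lowest transgene libraries. GstO2 rose by 0.43 ± 0.15 in p210 (edgeR adjusted p = 0.035) and was not called in T315I (0.28 ± 0.15, 0.146), and the difference between T315I and p210 was -0.14 ± 0.15. The p210 call was lost without control replicate 2 (0.30, adjusted p = 0.101), p210 replicate 1 (0.35, adjusted p = 0.1) or p210 replicate 2 (0.47, adjusted p = 0.0587). It was lost too with upper-quartile scaling (0.28), the stricter filter (0.24), a fit without T315I (0.36) and plasmatocyte scaling, where the direction turned (-0.03).

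Of the 4 Theta genes 1 was called. GstT1 had 108.8, 86.6 and 74.2 CPM in p210, 85.8, 76.1 and 89.3 CPM in T315I, and 95.1, 79.8 and 81.9 CPM in control, with all groups overlapping and log2 fold changes of 0.07 ± 0.15 and -0.03 ± 0.15. GstT2 averaged 23.8 ± 1.63, 22.5 ± 0.91 and 22.5 ± 3.62 CPM in p210, T315I and control. GstT3 had 31.2, 28.5 and 25.3 CPM in p210, 27.5, 33.1 and 31.5 CPM in T315I, and 44.1, 32.9 and 34.7 CPM in control, and narrowly missed the threshold in p210 (-0.39 ± 0.15, edgeR adjusted p = 0.0505). DESeq2 called GstT3 lower in p210 (-0.43, adjusted p = 0.0237), as did edgeR with RLE scaling (-0.44, adjusted p = 0.0337), and neither called it in T315I. Plasmatocyte scaling (-0.87 and -0.75) and the stricter filter (-0.58 and -0.41) called it lower in both p210 and T315I. Without control replicate 1 it was at -0.20 in p210 (edgeR adjusted p = 0.222).

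GstT4, the called Theta gene, had 10.9, 5.31 and 7.1 CPM in p210, 7.63, 11.3 and 7.24 CPM in T315I, and 22.3, 15.5 and 13.1 CPM in control. It fell by 1.11 ± 0.33 in p210 (edgeR adjusted p = 0.0169) and by 0.95 ± 0.33 in T315I (0.0376) on the log2 scale, with no overlap. The p210 call was lost without p210 replicate 2 (-0.89, adjusted p = 0.0687) or 3 (-1.05, adjusted p = 0.0562). The T315I call was lost without p210 replicate 3, T315I replicate 1 or 3, or control replicate 1 or 2 (-0.92, -0.84, -0.81, -0.65 and -1.01, adjusted p = 0.0587, 0.118, 0.136, 0.115 and 0.0626).

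Of the Zeta pair, GstZ1 had 23.1, 18.3 and 19.8 CPM in p210, 20.3, 23.8 and 20 CPM in T315I, and 17.7, 18.3 and 14.8 CPM in control, and was not called (0.27 ± 0.16 and 0.34 ± 0.16). GstZ2 had 0.17, 0.354 and 0.439 CPM in p210, 0.494, 0.844 and 0.783 CPM in T315I, and 1.29, 3.42 and 0.853 CPM in control. Those levels rest on 3, 5 and 6 counts in p210, 7, 12 and 12 in T315I, and 7, 31 and 9 in control. GstZ2 was called lower in p210 (-2.54 ± 0.63, edgeR adjusted p = 0.00759) and not in T315I (-1.39 ± 0.58, 0.0718). Its log2 fold change was -1.70 in p210 and -0.55 in T315I without control replicate 2, and -1.76 in T315I without control replicate 3, where the gene was called (adjusted p = 0.0329).

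The 6 members that did not pass the filter on low counts were GstD6, GstD8, GstD11, GstE4, GstE10 and GstE14. Their counts ran from 0 to 14 per library, with totals over the 9 libraries between 7 (GstD8) and 49 (GstD6). GstE14, known as noppera-bo and needed for ecdysteroid synthesis in the prothoracic gland, had 2 counts in p210, 4 in T315I and 5 in control. Fitted without the filter, none of the 6 was called in any comparison. GstE14 then had log2 fold changes of -1.84 ± 1.14 in p210 and -0.91 ± 1.05 in T315I (edgeR adjusted p = 0.212 and 0.523), and the smallest adjusted p among the 6 was that of GstE10 in p210 (-1.80 ± 0.71, adjusted p = 0.0563). GstE10 also passed the filter in fits with 1 library left out, and was called lower in p210 without T315I replicate 2 (-1.84, adjusted p = 0.043), T315I replicate 3 (-1.83, adjusted p = 0.0475) or control replicate 1 (-2.18, adjusted p = 0.0113), on 2, 3 and 3 counts in p210 and 1, 8 and 9 in control.

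In dm6 coordinates the 11 Delta genes fill 20.8 kb of chromosome 3R (12364776 to 12385624), with GstD10, GstD9 and GstD1 on the minus strand and GstD2 to GstD8 and GstD11 on the plus strand. GstD3 is 363 bases from GstD2, which was not called (-0.84 ± 0.62 and 0.05 ± 0.60). Without control replicate 3 GstD2 was at -0.17 ± 0.68 and 0.76 ± 0.66, also not called. GstD4, 286 bases from GstD3, was at 0.82 ± 0.62 and 0.87 ± 0.62 and not called. It was called higher without control replicate 3 (2.14 ± 0.56 and 2.25 ± 0.56).

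The 10 genes GstE1 to GstE10 fill 13.2 kb of chromosome 2R (18396638 to 18409835). GstE2 and GstE6 are the only genes there with a log2 fold change above 2, and both have neighbours that were not called. GstE1 lies 262 bases before GstE2 and GstE3 337 bases after it, at -0.09 ± 0.19 and -0.09 ± 0.21 in p210 and at 0.39 ± 0.19 and 0.05 ± 0.21 in T315I. GstE7 lies 162 bases after GstE6, at 0.54 ± 0.27 and 0.48 ± 0.27. Of the 35 members 28 have a span free of other annotated genes, GstD3, GstD5, GstE2, GstE6, GstE8 and GstS1 among them, and the share free is 78.9% for GstT2, 84.7% for GstE1 and at least 93.3% for the others. Delta and Epsilon genes are duplicates of each other, and the treatment of reads that align to several copies is not given in the sources used here, so single members of a cluster are uncertain to that extent.

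**Figure D5:**
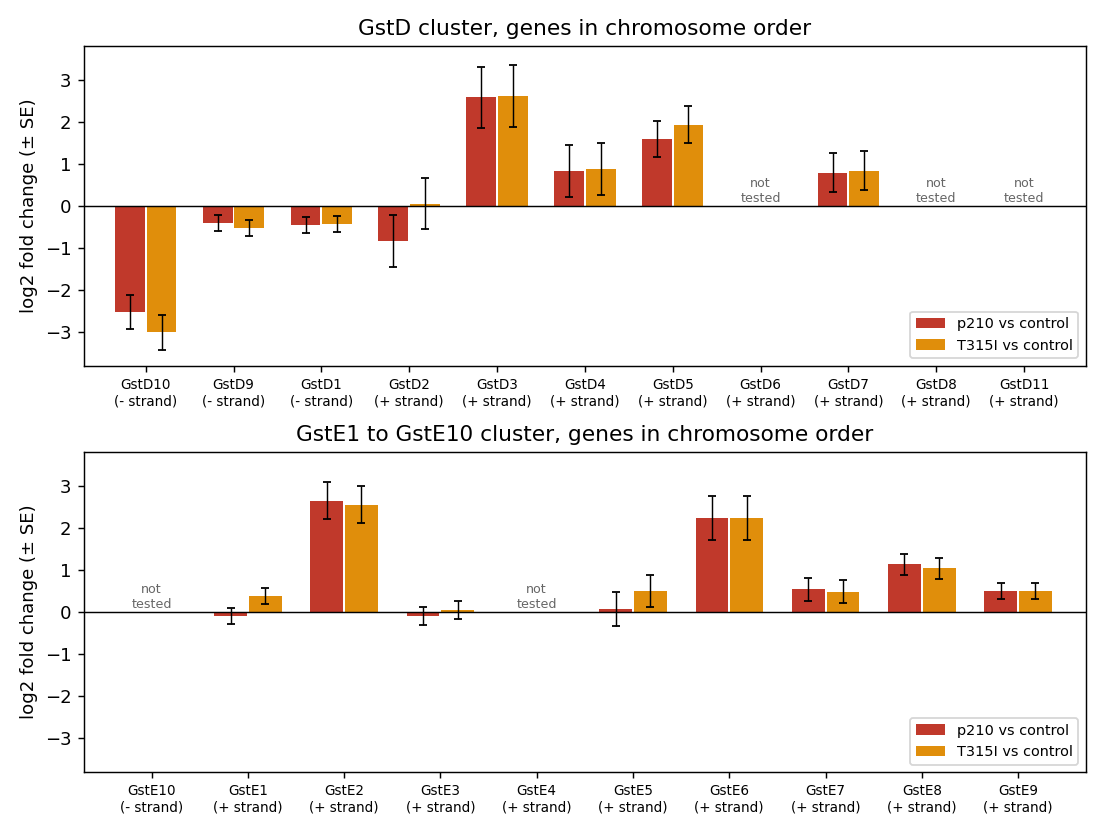
Log2 fold change over control (± SE) for p210 (red, left) and T315I (orange, right), with genes in chromosome order and their strand, for the GstD cluster (upper) and GstE1 to GstE10 (lower). High bars of GstD3, GstE2 and GstE6 stand next to genes that were not called, of which GstD4 was called higher without control replicate 3. The minus-strand genes GstD10, GstD9 and GstD1 lie below 0.

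The last comparison set T315I against p210. No member was called by edgeR, and 0.01% of all tested genes were. At an unadjusted p under 0.05 edgeR and DESeq2 each gave 2 of the 29 tested members, where 348 and 471 of all 9978 tested genes passed. Neither called a member by adjusted p. Libraries of T315I and p210 did not overlap in 5 members, all higher in T315I, or 17.2% of members against 16.7% of all tested genes (9.57% higher and 7.09% lower). These were GstE1 (0.48 ± 0.19), GstE5 (0.43 ± 0.37), GstS1 (0.77 ± 0.32), GstO1 (0.57 ± 0.31) and GstZ2 (1.15 ± 0.64), each with an edgeR adjusted p = 0.999. GstE1 had 20.1, 20.3 and 15.9 CPM in T315I, against 14.2, 15 and 11.4 CPM in p210. For the 5 genes that rose in both groups the differences were 0.03 ± 0.68 for GstD3, 0.35 ± 0.40 for GstD5, -0.09 ± 0.40 for GstE2, 0.00 ± 0.50 for GstE6 and -0.09 ± 0.25 for GstE8, all within 1 SE of 0.

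Other genes of the pathway were followed in 5 lists of 66 genes, of which 50 were tested, 7 were called higher and 22 lower in p210, and 5 higher and 21 lower in T315I (58.0% and 52.0% called, against the 57.1% and 49.3% of all tested genes). Of 10 genes of glutathione synthesis and turnover 2 were higher and 4 lower in each comparison, with median log2 fold changes of -0.11 in p210 and -0.08 in T315I. Gclm, the modifier subunit of the enzyme that starts glutathione synthesis, fell to 46.1 ± 6.72 CPM in p210 and 45.9 ± 1.59 CPM in T315I, against 82.9 ± 6.19 CPM in control (-0.84 ± 0.13 and -0.85 ± 0.13, edgeR adjusted p = 0.00143 and 0.003). The gamma-glutamyl transpeptidase genes, whose products start the breakdown of glutathione conjugates, differed among themselves. Ggt-1 fell by 3.36 ± 0.57 in p210 and by 2.72 ± 0.55 in T315I, while CG4829 rose, at 208.1 ± 52.2 CPM in p210 and 183.3 ± 4.73 CPM in T315I, against 70.4 ± 33.7 CPM in control (1.56 ± 0.31 and 1.38 ± 0.31).

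Among 5 regulators, Keap1, which holds Cnc in check, and foxo, a stress and insulin response factor, rose in p210 (0.34 ± 0.12 and 0.42 ± 0.16, edgeR adjusted p = 0.0314 and 0.0428) and were not called in T315I (0.15 ± 0.12 and 0.21 ± 0.16). Their differences between T315I and p210 were -0.19 ± 0.11 and -0.21 ± 0.16, not called. The list median was 0.14 in p210 and 0.03 in T315I. The Cnc gene itself, cnc, added here outside the naming rule, was at 338.7 ± 41.5 CPM in p210, 348.3 ± 34.6 CPM in T315I and 355.7 ± 41.4 CPM in control (-0.07 ± 0.14 and -0.03 ± 0.14, not called).

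Of 11 other glutathione-using or related genes 8 were tested, 2 rose and 3 fell in each comparison, with medians of -0.01 and -0.10. The chloride channel gene Clic, whose product has the transferase fold, rose (1.41 ± 0.28 and 1.22 ± 0.28). Mgstl, a microsomal transferase whose span is 76% free of other genes, fell to 11 ± 1.9 CPM in p210 and 12.1 ± 2.11 CPM in T315I, against 25.6 ± 7.71 CPM in control (-1.21 ± 0.25 and -1.07 ± 0.25). Grx1t, a glutaredoxin gene, fell (-3.03 ± 0.58 and -1.93 ± 0.55). The Omega gene se averaged 0.132 CPM in p210, 0.209 CPM in T315I and 1.22 CPM in control and was not tested, and gfzf and PHGPx were listed at 0 in all libraries. Of these, gfzf has its span wholly covered by other genes.

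UDP-glycosyltransferases, which conjugate sugars in place of glutathione, had 35 genes in the table and 23 tested. Of these 14 fell in p210 and 13 in T315I and 0 rose, with medians of -2.82 and -1.94, where 30.3% and 28.7% of all tested genes were called lower. Fat body, muscle, midgut, Malpighian tubule and cuticle markers, with list medians of -3.95, -3.27, -2.88, -1.69 and -4.52 in p210 and -2.84, -2.87, -2.76, -1.99 and -3.84 in T315I, were lower in the same libraries, and their part in this result was not tested. The smallest adjusted p values in p210 were those of Ugt301D1 (-3.58 ± 0.35 and -2.54 ± 0.33), Ugt36E1 (-3.66 ± 0.52 and -2.75 ± 0.49) and Ugt303B2 (-3.99 ± 0.61 and -2.22 ± 0.54). Of 5 exporters 4 were tested, 1 rose and 1 fell in each comparison, with medians of -0.35 and -0.19. MRP, a pump for glutathione conjugates whose span is 69.9% free of other genes, rose to 338.3 ± 64.4 CPM in p210 and 342.7 ± 40.8 CPM in T315I, against 209.1 ± 37.7 CPM in control (0.69 ± 0.19 and 0.71 ± 0.19, edgeR adjusted p = 0.0108 and 0.013). Mdr50, of the multidrug resistance family, fell (-3.09 ± 0.42 and -2.52 ± 0.41), and Mdr65 was too low to test. Between T315I and p210 none of the 50 tested genes of these 5 lists was called.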

How the data were processed

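The authors deposited raw counts per gene for 9 hemocyte libraries, without normalization. Per the labels' protocols, libraries were stranded total RNA after ribosomal RNA depletion. The submitters' processing notes name HISAT2 2.1.0, featureCounts 2.0.1, FastQC 0.11.8 and the build dm6. Annotation release, strand setting and the rule for multi-mapping reads: not given in the sources used here. Each column of counts carried the group and replicate of 1 sample.

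Tests used edgeR 4.0.16 in R 4.3.3, with filterByExpr (9978 genes kept), TMM and a robust quasi-likelihood fit of 1 mean per group over all 9 libraries. They were two-sided, with p adjusted by Benjamini-Hochberg over all tested genes and a threshold of 0.05. Standard errors are the absolute log2 fold change over the square root of F, and CPM are mean ± SD. Symbols were matched to Ensembl release 115 (17554 of 17874 genes). Alternatives were RLE, upper-quartile and plasmatocyte marker scaling, DESeq2 1.42.0, limma 3.58.1, dropping the filter or raising it to 5 CPM in 3 libraries (the stricter filter), a replicate block, fits of 2 groups alone, and leaving out each library. The fit was tested on simulated data. Replicate libraries varied beyond sampling noise, with chi-square over degrees of freedom of 14.4 to 98.5. Members and lists were chosen with earlier results of these data known. By rule, values per library are given for members called with at least a 2-fold change and for the 2 most abundant of each class, and up to 3 called genes are named from each pathway list by adjusted p. Other members described with values, and marker genes at 0, were chosen after their values were seen.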

Additional observations from a re-analysis of the deposited data

How the results depend on the processing

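Over all alternatives, 12 to 20 members were called in p210 (40.0 to 66.7% of those tested, against 40.7 to 60.3% of all genes) and 11 to 19 in T315I (34.3 to 63.3%, against 32 to 52.5%). With 1 library left out, members called higher ranged from 5 to 8 in p210 and from 5 to 8 in T315I. The 8 in p210 came without control replicate 1 or 3, and the 8 in T315I without control replicate 3. In these settings 2962 of 10314 and 2563 of 10192 tested genes were called higher in p210, and 2278 of 10192 in T315I. Scaled to plasmatocyte markers, 2 members were called higher in p210 and 3 in T315I, and 3 pathway genes in each (7 and 5 by TMM). Of all 9978 tested genes 509 and 408 were called higher in that setting. The log2 ratios of summed class CPM under that scaling were -0.58 and -0.55 for class D, 0.13 and 0.14 for E, -0.58 and -0.63 for T, -1.64 and -1.72 for O, and -0.35 and -0.25 for Z, in p210 and T315I. That scaling shifts every gene. With the filter of 5 CPM in 3 libraries, 17 of 39 tested pathway genes were called in T315I, 13 of them lower. Of all 7639 genes tested with that filter 3385 were called in T315I, 1971 of them lower. The main fit tested 50 and called 5 higher and 21 lower. Directions turned for GstT1 in p210 (-0.08 by upper quartile, -0.39 by plasmatocyte scaling, -0.12 with the stricter filter, and -0.06 to 0.20 with 1 library left out) and in T315I (0.02 without a filter, and -0.08 to 0.11 with 1 library left out). They also turned under plasmatocyte scaling for GstO2 (-0.03 and -0.17) and GstZ1 (-0.22 and -0.14). None was called in these settings, and the cause was not tested. DESeq2 gave GstD3 no adjusted p (2.57 and 2.62). With the replicate block 5 members were called higher and 9 lower in p210, and 5 and 8 in T315I. Of all 9978 tested genes 2461 were then called higher and 2838 lower in p210, and 1866 and 2259 in T315I. Under the block GstD1 was called lower in both (-0.44 and -0.43), and GstO2 in p210 and GstT4 in T315I were not called (adjusted p = 0.0507 and 0.0577). The labels do not state that replicate numbers mark a shared day. Deviations of log2 CPM from the group mean of each gene were correlated between libraries of different groups. These correlations ran from -0.318 to 0.166 with the same number and from -0.238 to 0.352 with different numbers. Whether same-numbered libraries share a batch was not tested. The 6 members below the filter were tested without it, with standard errors of 0.65 to 1.39, and GstD6 and GstE10 also passed it in fits with 1 library left out. GstE10 was called lower in p210 in 3 of these.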
